A study of Mus musculus with 5 samples.

Results

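The broadest CBX2 domains in mouse embryonic fibroblasts (MEFs) were examined across 3 lists of CBX2 ChIP-Seq peaks. A domain here is a called peak that spans at least 15000 bp. The members were chosen by this width alone, which took 226 of the 871 peaks, namely 71 of 289 in Control cells, 52 of 255 in EZHIP-expressing cells and 103 of 327 in K27M-expressing cells. The Control cells were parental MEFs with loxP-flanked (EED floxed) alleles of EED, a subunit of PRC2. The other 2 groups carried the same alleles and stably expressed, from a lentivirus, either human EZHIP or the histone mutant H3.3K27M. The cells came from an E13.5 mouse embryo, and each group had 1 library. Chromatin was crosslinked and digested with micrococcal nuclease, and broad peaks were called in each library by the authors. Libraries of K27R and EEDnull cells are described in the labels and were not analysed here. The lists hold positions only, with no measure of peak height, and the read depth is unknown. Percentages and medians therefore carry 95% intervals that cover counting error only, with no replicate check and no test of a difference.

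Polycomb Repressive Complex 2 (PRC2) places methyl groups on lysine 27 of histone H3, and this mark helps to keep developmental genes silent. CBX2 is a chromobox subunit of Polycomb Repressive Complex 1 (PRC1), which can bind the trimethylated form of that lysine and compact nucleosomes. In mammals, Polycomb complexes gather at CpG islands, stretches of DNA rich in C followed by G (CpG), and the widest Polycomb domains are known for transcription factor genes that set cell identity. EZHIP and H3.3K27M both inhibit PRC2. Broad domains allow a comparison of the inner part and the edges of CBX2 binding when PRC2 is inhibited.

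The following 200 bp segments show what kind of sequence lay under broad domains. Each is the segment with the most CpGs, outside annotated exons, in the stated part of a locus. Each is read 5′ to 3′ on the forward strand of mm9, with each CpG in capitals. The first 3 came from sequence that was under a peak in all 3 lists, beside the starts of Hoxc13, Pax6 and Sox2. The next 2 pairs compare the part of a locus shared by all lists with a part covered in the K27M list alone. The Lin28b pair compares the part that remained under an EZHIP peak with a part covered in Control and K27M but not in EZHIP. The last is from a broad peak in repeated sequence.
Hoxc13, all lists (chr15:102752401-102752600, intron of Hoxc13): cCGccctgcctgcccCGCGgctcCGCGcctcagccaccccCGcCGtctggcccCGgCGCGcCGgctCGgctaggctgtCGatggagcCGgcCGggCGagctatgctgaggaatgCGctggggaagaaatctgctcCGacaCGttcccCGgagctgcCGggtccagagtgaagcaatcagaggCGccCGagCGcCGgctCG
Pax6, all lists (chr2:105509801-105510000, intron of Pax6): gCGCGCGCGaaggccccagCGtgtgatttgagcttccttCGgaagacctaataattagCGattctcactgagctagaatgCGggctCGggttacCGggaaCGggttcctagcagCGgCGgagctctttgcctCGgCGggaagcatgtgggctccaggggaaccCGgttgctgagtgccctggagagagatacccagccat
Sox2, all lists (chr3:34548601-34548800, intergenic): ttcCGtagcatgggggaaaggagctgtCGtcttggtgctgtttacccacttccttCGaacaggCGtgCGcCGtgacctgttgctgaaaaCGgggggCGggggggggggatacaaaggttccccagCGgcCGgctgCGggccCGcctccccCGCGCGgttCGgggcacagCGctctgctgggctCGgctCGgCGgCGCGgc
Tcfap2b, all lists (chr1:19200001-19200200, intron of Tcfap2b): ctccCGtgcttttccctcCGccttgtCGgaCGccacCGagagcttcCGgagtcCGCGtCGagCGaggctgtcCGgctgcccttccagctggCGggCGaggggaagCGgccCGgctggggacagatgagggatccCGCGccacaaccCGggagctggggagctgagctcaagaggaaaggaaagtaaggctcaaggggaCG
Tcfap2b, K27M alone (chr1:19231601-19231800, intergenic): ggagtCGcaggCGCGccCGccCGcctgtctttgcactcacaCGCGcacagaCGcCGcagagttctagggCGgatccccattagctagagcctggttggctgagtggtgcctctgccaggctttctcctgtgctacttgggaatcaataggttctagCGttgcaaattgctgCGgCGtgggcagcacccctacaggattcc
Tcf21, all lists (chr10:22539001-22539200, intron of Tcf21): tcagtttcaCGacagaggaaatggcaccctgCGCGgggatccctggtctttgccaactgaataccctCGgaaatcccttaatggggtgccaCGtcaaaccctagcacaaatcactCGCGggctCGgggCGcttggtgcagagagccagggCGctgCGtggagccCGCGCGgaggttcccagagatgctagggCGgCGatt
Tcf21, K27M alone (chr10:22530801-22531000, intergenic): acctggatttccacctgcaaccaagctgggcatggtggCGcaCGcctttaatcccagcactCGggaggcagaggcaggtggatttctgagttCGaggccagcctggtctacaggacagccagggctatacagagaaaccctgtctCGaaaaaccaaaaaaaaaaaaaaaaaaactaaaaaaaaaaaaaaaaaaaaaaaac
Lin28b, all lists (chr10:45193601-45193800, intron of Lin28b): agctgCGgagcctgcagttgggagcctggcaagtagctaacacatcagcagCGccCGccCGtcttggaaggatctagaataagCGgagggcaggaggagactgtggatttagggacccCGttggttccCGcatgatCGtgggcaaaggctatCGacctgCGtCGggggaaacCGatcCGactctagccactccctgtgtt
Lin28b, Control and K27M (chr10:45205601-45205800, intron of Lin28b): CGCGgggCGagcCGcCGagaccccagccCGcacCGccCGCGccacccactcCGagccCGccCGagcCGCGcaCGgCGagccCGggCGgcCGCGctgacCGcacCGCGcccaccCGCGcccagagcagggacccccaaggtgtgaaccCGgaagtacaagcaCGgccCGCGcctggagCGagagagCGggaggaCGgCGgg
Repeated sequence near Gm11168, all lists (chr9:3005601-3005800, intergenic): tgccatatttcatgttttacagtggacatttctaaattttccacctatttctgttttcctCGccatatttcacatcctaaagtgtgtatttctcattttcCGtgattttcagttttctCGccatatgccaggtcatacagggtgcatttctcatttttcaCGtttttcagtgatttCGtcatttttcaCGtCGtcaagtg
The segments beside Hoxc13, Pax6 and Sox2 held 26, 16 and 22 CpGs. At Tcfap2b the shared segment held 19 and the K27M-only segment 13, and at Tcf21 the counts were 16 and 5. The order was the other way at Lin28b, where the segment still under an EZHIP peak held 13 CpGs and the segment that had left the EZHIP list held 33. The repeated sequence held 7. The paired parts differ in size, with 15 and 87 segments free of exons at Lin28b, and a maximum over more segments tends to be higher. Over each whole part, the Lin28b pair held 12.7 and 17.9 CpGs per kb. The Tcfap2b pair held 32.2 and 13.0 per kb, and the Tcf21 pair 32.3 and 6.79.

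Broad domains were a minority of peaks but held most of the covered length. They made up 24.6% of the Control list, 20.4% of the EZHIP list and 31.5% of the K27M list, and 58.8%, 52.9% and 65.0% of the base pairs under peaks. The median width was 22000 bp in Control, 23200 bp with EZHIP and 24800 bp with K27M, with the widest at 91600, 86400 and 89200 bp. Width chose these peaks, so these values are a description.

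Most broad domains took in a gene start, meaning the 5′ end that the annotation gives a protein-coding gene. This was so for 56 of 71 Control domains (78.9%, 95% interval 67.6 to 87.7%), 44 of 52 EZHIP domains (84.6%, 71.9 to 93.1%) and 87 of 103 K27M domains (84.5%, 76.0 to 90.9%). Among peaks under 15000 bp the shares were 37.2%, 41.9% and 54.0%. Per length, the order was the other way, since broad domains held 5.10, 6.23 and 4.17 gene starts per 100 kb in Control, EZHIP and K27M, against 7.74, 8.37 and 9.35 in shorter peaks. A single gene start lay in 43 Control, 33 EZHIP and 75 K27M domains, several lay in 13, 11 and 12, and the most in any domain was 12.

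CpG islands were likewise more often present in broad domains but less dense. A window that met a CpG island rule (500 bp, G+C of at least 55%, observed over expected CpG of at least 0.65) lay in 81.7% of Control, 82.7% of EZHIP and 88.3% of K27M broad domains. In shorter peaks the shares were 60.1%, 67.0% and 82.1%. Such windows covered 13.5%, 14.3% and 13.2% of the length of broad domains but 20.4%, 21.9% and 25% of the length of shorter peaks. The median broad domain held 3 separate runs of windows in each list, and the median shorter peak held 1. Peaks are termed multi-copy here if 50% or more of their 32 bp words recur elsewhere in the genome. This applied to 16 Control, 10 EZHIP and 15 K27M broad domains. In such sequence the placing of reads among copies is uncertain, so a peak there need not mark binding at that place. Without multi-copy peaks, 100% of Control, 97.6% of EZHIP and 100% of K27M broad domains held a CpG island window.

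Regulators of development made up a large share of the genes under broad domains. Of 22380 protein-coding genes in the annotation, 98 (0.438%) had their start in a broad Control domain, 91 (0.407%) in a broad EZHIP domain and 121 (0.541%) in a broad K27M domain. A list of 14 families of developmental transcription factors held 320 genes (1.43% of the annotation). It supplied 52 of the 98 Control genes, 44 of the 91 EZHIP genes and 75 of the 121 K27M genes. Counted by domain, 36 of 71 Control domains (50.7%, 38.6 to 62.8%), 26 of 52 EZHIP domains (50%, 35.8 to 64.2%) and 59 of 103 K27M domains (57.3%) held a start from this list. In shorter peaks the shares were 16.1%, 16.3% and 18.8%. Broad domains more often hold any gene start, which enters this count by domain. Counted by gene, the list supplied 53.1%, 48.4% and 62.0% of genes starting in broad Control, EZHIP and K27M domains. In shorter peaks it supplied 34.6%, 31.2% and 30.1%, a smaller contrast.

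Among homeobox families, the group of Hox genes, which set position along the body axis, held 40 annotation entries. Of these entries, 21 started in a broad domain of at least 1 list, and 16 did so in all 3. Of the 9 Pax genes, Pax2, Pax5 and Pax6 lay in broad domains of every list, Pax3 and Pax7 in broad K27M domains, and 4 lay under no peak. Of 43 genes listed as other homeobox genes, 17 lay in a broad domain of some list. These were broad in Control for 10 genes, in EZHIP for 5 and in K27M for 17. Barhl2, Evx2, Hmx2, Mnx1 and Onecut2 were the 5 that were broad in all lists. Of 26 paired-like homeobox genes, Otp and Uncx were broad in every list, while others such as Otx2 were broad in some. Of 14 Nkx genes, Nkx2-3 was broad in all lists and Nkx2-1, Nkx2-5, Nkx3-2 and Nkx6-1 in K27M but not in each of the others. Isl1, which specifies motor neurons and heart progenitors, was the LIM homeobox gene broad in all lists, and Lhx1, Lhx4 and Lhx5 were broad in K27M.

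Outside the homeobox families above, broad domains covered few members of large families. Of 20 Sox genes only Sox2, a regulator of pluripotency and neural progenitors, was broad in any list, and it was broad in all of them. Foxb1 and Foxd1 were broad in every list among 43 Fox genes, and Foxa1, Foxa2 and Foxf2 in some. Of 11 Gata and Zic genes, Zic1, Zic2, Zic4 and Zic5 were broad in all lists. Of 50 bHLH genes, Neurog2, which drives neuron formation, was broad in all lists, and others such as Olig2, Olig3 and Tcf21 in some. Pou3f2 was broad in every list and Pou4f1 in some. Tbx20, a heart regulator, was the T-box gene in a broad domain, in EZHIP and K27M. Gene starts of other regulators in domains broad in every list included Prdm13, Sim1, Sp8 and Tcfap2a, named after their values were seen. Lbx1, a homeobox gene that the families above leave out, was also broad in every list.

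Several gene groups were absent from broad domains. None of 93 genes for secreted ligands and antagonists, 28 Polycomb subunits, 7 cell-cycle inhibitors, 1113 olfactory receptors, 323 vomeronasal receptors, 51 defensins, 24 clustered protocadherins or 54 keratins started in a broad domain of any list. The same was true of 13 genes that mark fibroblasts, such as Col1a1, Thy1 and Twist1, and of 8 genes used in every cell. Over all protein-coding genes the share was 0.438% in Control, 0.407% in EZHIP and 0.541% in K27M. At shares this low, 0 is the usual count for a small group of any kind, so little can be read from it there. Peak lists hold no expression values, so the labelled cell type could not be checked. Histone genes were the exception among groups that are not developmental, with 14 of 67 in a broad domain of Control or EZHIP and 0 in a broad K27M domain.

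Overlapping peaks of the 3 lists were joined into 430 sites, and 110 of them held at least 1 broad peak. Of these broad loci, 44 were broad in all lists, 19 in Control and K27M, 2 in Control and EZHIP, and 4 in EZHIP and K27M. A further 35 were broad in K27M alone, 5 in Control alone and 1 in EZHIP alone. A peak of any width was present in all lists at 94 of the 110 loci, in 2 lists at 11 and in 1 list at 5. Most loci that were broad in K27M alone were thus shorter peaks elsewhere, with a median covered length of 10400 bp in Control and 5600 bp in EZHIP against 21000 bp in K27M. Width placed the loci in these classes, and the lists differ in how many peaks pass the limit. When the 52 widest peaks of each list were taken instead, 28 loci were in all 3 sets, 13 in the EZHIP set alone and 11 in the K27M set alone.

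**Figure D1:**
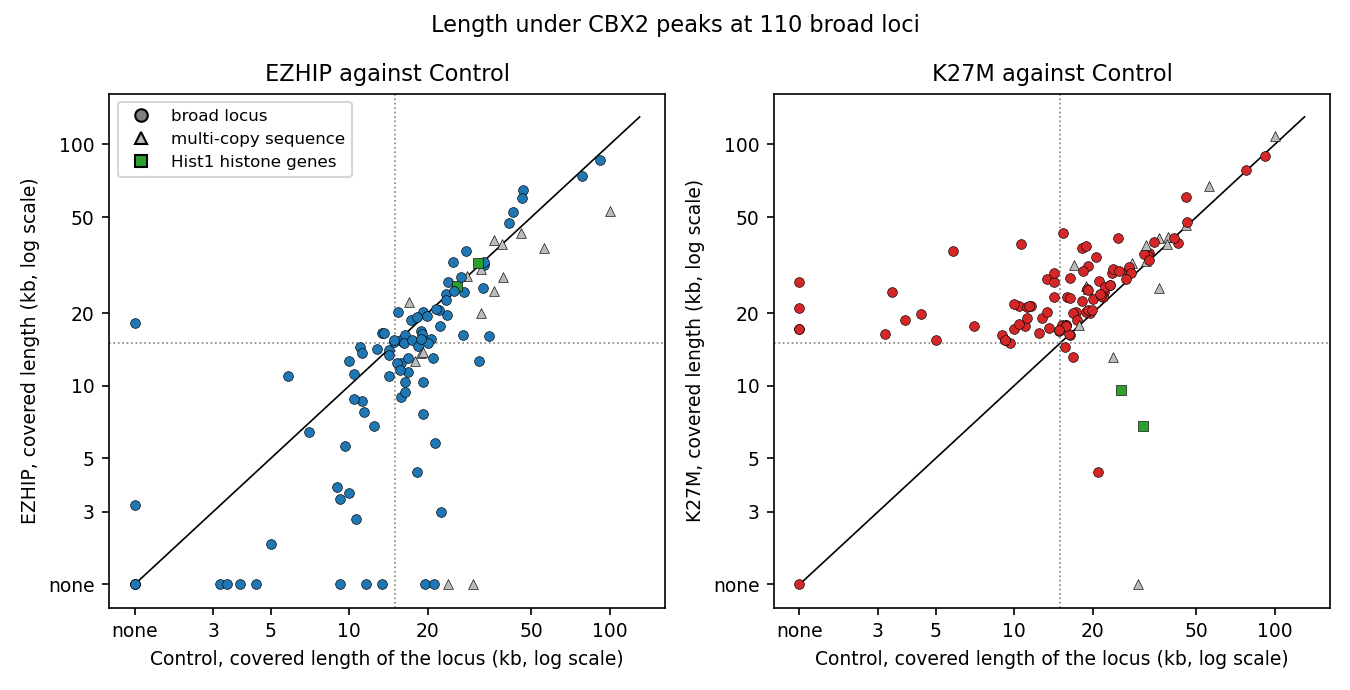
Length in kb under CBX2 peaks at the 110 broad loci, EZHIP (left) and K27M (right) against Control, on log axes where "none" stands for no peak, with the diagonal for equal length and dotted lines at 15 kb. Circles are broad loci, triangles loci with a multi-copy broad peak and squares the 2 loci of Hist1 histone genes. Most points lie below the diagonal for EZHIP and above it for K27M, where the 2 Hist1 loci lie far below it.

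At the 94 loci with a peak in each list, the length under peaks was shorter in EZHIP than in Control at 65 loci, longer at 26 and equal at 3. The median log2 ratio was -0.15 (95% interval -0.34 to -0.06). In K27M it was longer than in Control at 82 loci, shorter at 10 and equal at 2, with a median log2 ratio of 0.21 (0.17 to 0.36). Differences of at least 1.5-fold were fewer. They were seen at 22 shorter loci and 1 longer locus in EZHIP, and at 28 longer and 3 shorter loci in K27M. These comparisons share the Control list. Of the 94 loci, 24 were broad in K27M alone, so a longer K27M length there follows in part from the choice of loci.

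The 10 widest loci that were broad in all lists held 4 Hox clusters, and 4 of the 10 were multi-copy. The locus with Hoxc13 to Hoxc8 was covered over 91.6 kb in Control, 86.4 kb with EZHIP and 89.2 kb with K27M. The start of Hoxc8 lay outside the EZHIP peak. The Hoxd locus with Evx2 was covered over 46.2, 64.6 and 47.6 kb. The locus of Zic4 and Zic1, regulators of hindbrain development that lie head to head, was covered over 45.8 kb in Control, 60.2 kb with EZHIP and 60.4 kb with K27M. The Control domain there was the shortest of the 3, and the EZHIP and K27M domains differed in length by a single bin. Sfi1, a gene for a centrosomal protein, lay in a domain of 77.8 kb in Control, 74.2 kb with EZHIP and 78.0 kb with K27M (chr11:3022201-3100200), with 19.5% repeated words. The multi-copy loci of this group were those of Gm15319, 4930467E23Rik, Sp110 with Sp140, and a locus near Gm10354, with 81.1 to 91.5% repeated words. The placing of reads is uncertain at these loci and in the repeated part of the Sfi1 domain.

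Broad domains had a counterpart in the other lists more often than the average peak did. A counterpart is at least 1 peak that overlaps by at least 1 bp. An EZHIP peak overlapped 67 of 71 broad Control domains (94.4%, 86.2 to 98.4%), against 66.4% of all Control peaks, and a K27M peak overlapped 70 (98.6%, 92.4 to 100%), against 79.2%. A Control peak overlapped 51 of 52 broad EZHIP domains (98.1%, 89.7 to 100%), against 75.7% of all EZHIP peaks, and a K27M peak also overlapped 51, against 75.3%. Of the 103 broad K27M domains, a Control peak overlapped 99 (96.1%, 90.4 to 98.9%), against 67.9% of all K27M peaks. An EZHIP peak overlapped 90 (87.4%, 79.4 to 93.1%), against 56.6%. A wide peak offers more sequence to overlap, and the overlap had to span at least 50% of both peaks in an alternative. The EZHIP counterpart of broad K27M domains then fell to 56.3%, and that of broad Control domains to 84.5%. The share over all peaks was not computed under that rule, so the comparison with the average peak holds for the 1 bp rule only.

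The counterparts of broad domains were themselves broad in most cases. This held for 47 of 71 Control domains in EZHIP (66.2%), 64 of 71 in K27M (90.1%), 47 of 52 EZHIP domains in Control (90.4%) and 49 of 52 in K27M (94.2%). Of the 103 K27M domains, 64 (62.1%) were also broad in Control and 48 (46.6%) in EZHIP. The median broad Control domain was 88.0% covered by EZHIP peaks and 100% covered by K27M peaks, and the median broad K27M domain was 81.0% covered by Control and 70.2% by EZHIP peaks.

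Widths in the list that chose a domain tend to be high, so each pair was described in both directions. At broad Control domains, the median log2 ratio of the EZHIP span to the Control width was -0.18 (-0.35 to -0.07), and at broad EZHIP domains the Control span relative to the EZHIP width gave 0.05 (0 to 0.09). At broad Control domains the K27M span gave 0.16 (0.10 to 0.19), while at broad K27M domains the Control span gave -0.26 (-0.42 to -0.18). Between the PRC2-inhibited cells the values were 0.16 (0.10 to 0.22) for K27M spans at broad EZHIP domains and -0.50 (-0.85 to -0.29) for EZHIP spans at broad K27M domains. Over all peaks with a counterpart, the medians in the same order were -0.09, 0.09, 0.32, -0.24, 0.45 and -0.38. K27M was thus the wider list of its pairs in either direction. EZHIP had the narrower median in either direction, although the lower bound of the Control span at broad EZHIP domains was 0. Without multi-copy peaks that median was 0.03 (-0.06 to 0.08), and with a limit of 20000 bp it was 0.03 (-0.07 to 0.08). Both of these intervals include 0.

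Spans at least 1.5-fold wider than the chosen domain were a smaller share at broad domains than over all matched peaks in each direction. EZHIP spans were at least 1.5-fold wider at 2 of 67 broad Control domains and narrower at 13, against 9.90% and 17.2% of all matched Control peaks. K27M spans were wider by that factor at 8 of 70 and narrower at 4, against 38.4% and 2.62%. At 51 broad EZHIP domains, Control spans were wider at 3 and narrower at 0, against 19.7% and 7.25%, and K27M spans were wider at 9 and narrower at 2, against 41.7% and 4.17%. At broad K27M domains, Control spans were wider at 1 of 99 and narrower at 35, against 4.05% and 34.2%, and EZHIP spans were wider at 0 of 90 and narrower at 41, against 4.86% and 37.8%. The factor used the width that chose the domain, which cannot be told apart from the choice in these counts.

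A comparison that the choice of domains did not enter takes the spans of 2 lists at the broad domains of the remaining list. At 67 broad Control domains with both counterparts, the K27M span was wider than the EZHIP span at 57, with a median log2 ratio of 0.29 (0.18 to 0.52). At 51 broad EZHIP domains the K27M span was wider than the Control span at 42, with a median of 0.13 (0.08 to 0.18). At 89 broad K27M domains the EZHIP span was wider than the Control span at 25 and narrower at 62, with a median of -0.13 (-0.34 to -0.05). None of the 3 intervals included 0, but the median at broad K27M domains was -0.04 when the overlap had to span at least 50% of both peaks, with an interval that reached 0. Over all peaks of the choosing list the medians were 0.44, 0.20 and -0.09, and over peaks under 15000 bp they were 0.52, 0.37 and -0.09. The wider spans in K27M than in Control were thus of smaller relative size at broad EZHIP domains than at the shorter EZHIP peaks, whose interval was 0.19 to 0.56. The intervals are those of a median over sites of a single pair of libraries. Without multi-copy domains, the medians at broad domains were 0.27, 0.14 and -0.11.

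**Figure D2:**
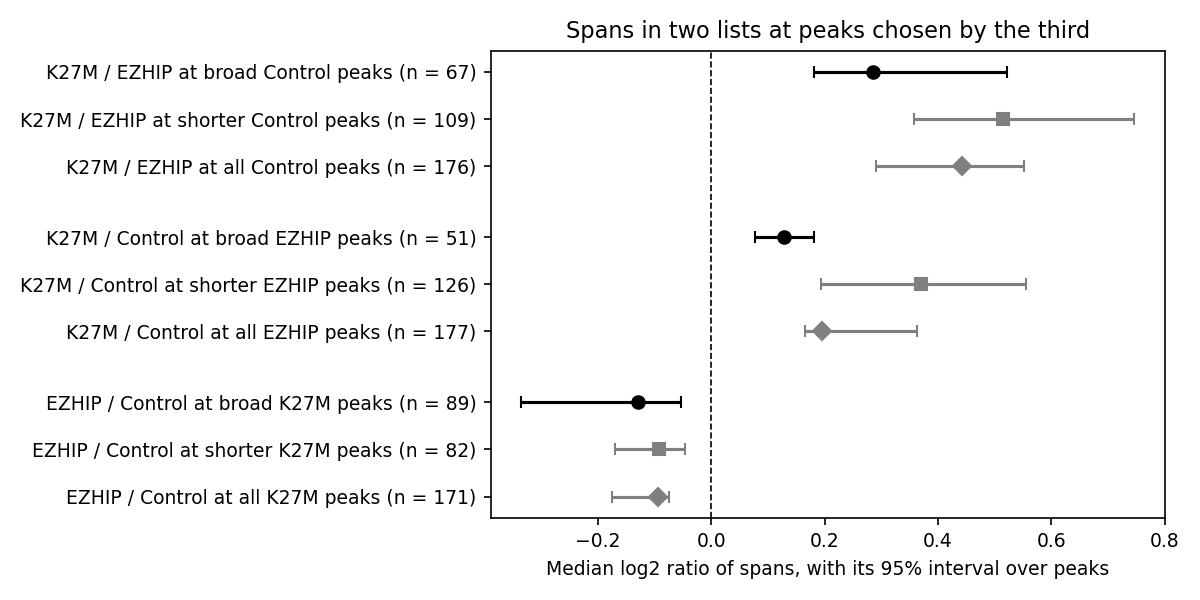
Median log2 ratio of the spans in 2 lists at peaks chosen in the remaining list, with 95% intervals over peaks, for broad domains (black circles), shorter peaks (grey squares) and all peaks (grey diamonds). K27M spans exceeded Control spans at broad EZHIP domains by a median of 0.13 and EZHIP spans fell below Control spans at broad K27M domains, with a median of -0.13.

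Gene starts were then followed from list to list, which asks what became of the part of a domain at the gene itself. Of 98 gene starts in broad Control domains, 79 lay in a broad EZHIP domain, 8 in a shorter EZHIP peak and 11 in none, so that 88.8% (80.8 to 94.3%) stayed under a peak, against 79.2% of all gene starts under Control peaks. For K27M the numbers were 84, 6 and 8, or 91.8% (84.5 to 96.4%), against 87.1%. Those absent from the EZHIP list included En1, Foxa2, Hmx3, Hoxc8, Lin28b, Nkx2-1, Pou4f1, Six3, Vax2 and BC107364, and 9 of the 11 belong to the developmental families, as do 52 of all 98, a difference that was not tested. Those absent from the K27M list were 8 histone genes of the Hist1 clusters, and no other.

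In the other direction, 8 of 91 gene starts in broad EZHIP domains lay under no Control peak, so that 91.2% were under one, against 80.0% of all gene starts under EZHIP peaks. They were Hoxd3, Hoxd8, Hoxd9, Gm14396, Hoxa7, Hist1h2ae, Hist1h2bg and Hist1h3e. Under K27M peaks lay 82.4% of the 91, against 78.0%, and the 16 that did not were the same 8 genes together with the 8 histone genes named above. Of 121 gene starts in broad K27M domains, 108 were under a Control peak (89.3%, 82.3 to 94.2%), against 65.9% of all gene starts under K27M peaks. The 13 exceptions included Cdx2, Dmbx1, Lhx5, Onecut1, Pax3 and Pax7. Under an EZHIP peak lay 76.9% (68.3 to 84.0%), against 58.4%, and 28 gene starts did not. Those 28 included all 10 genes that left from Control to EZHIP outside repeated sequence and, among others, Barx1, Bsx, Fezf1, Tlx1 and Wt1.

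**Figure D3:**
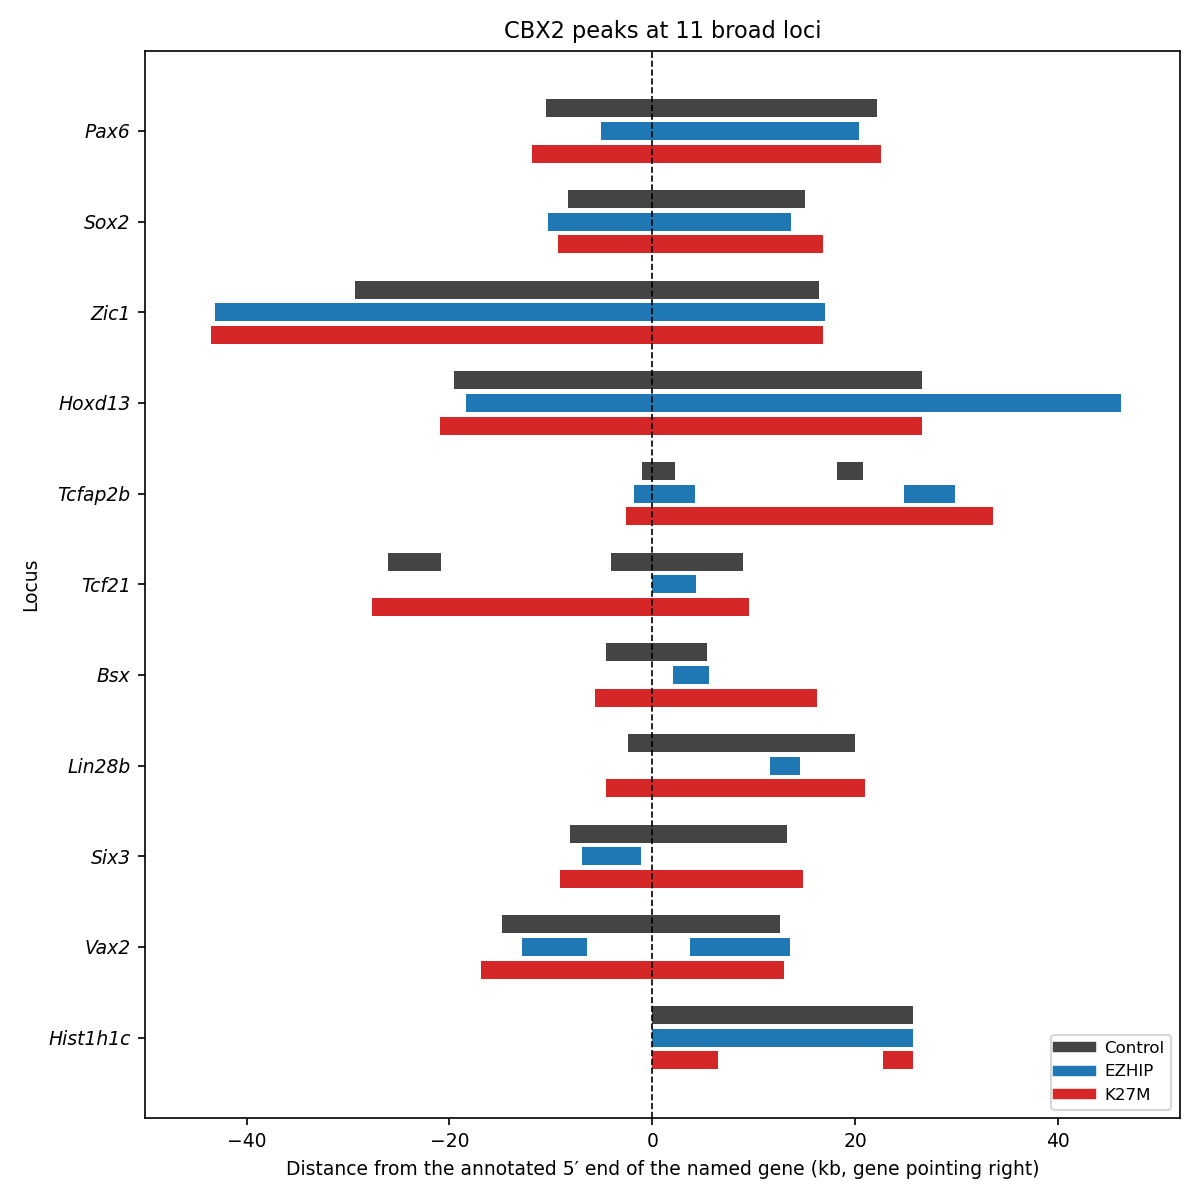
Extent of CBX2 peaks at 11 broad loci, in kb from the annotated start of the named gene with the gene pointing right, for Control (grey), EZHIP (blue) and K27M (red). No blue bar crosses the gene start at Bsx, Lin28b, Six3 and Vax2, and red bars join separate pieces at Tcfap2b and Tcf21.

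Some loci with broad domains in Control or K27M had no EZHIP peak at all, such as En1 and Wt1, and are described further on. Among the 94 loci with a peak in each list, those that narrowed most in EZHIP kept a small piece, in several cases away from the gene start. At Lin28b, which encodes an RNA-binding protein that blocks let-7 maturation, the length under peaks was 22.4 kb in Control, 3.0 kb with EZHIP and 25.6 kb with K27M (chr10:45185201-45210800). The EZHIP piece lay inside the gene and missed its start, as the segments printed above show. At Six3, a regulator of forebrain and eye development, the values were 21.4, 5.8 and 24.0 kb. The part of Six3 shared by all lists held 26 CpGs per kb, and the 15.6 kb covered in Control and K27M but not in EZHIP held 36.8. Tcf21, a bHLH factor of mesenchymal cells, had 18.2 kb in 2 pieces in Control, 4.4 kb with EZHIP and 37.2 kb with K27M. Unlike Lin28b and Six3, the EZHIP piece at Tcf21 held the gene start. Bsx, a homeobox gene of the hypothalamus, had 10.0, 3.6 and 21.8 kb. A domain within 1700106N22Rik, upstream of Six3, had 10.6, 2.8 and 38.8 kb (chr17:85854201-85895400). The log2 ratios of EZHIP to Control at these 5 loci ran from -2.90 to -1.47.

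The loci that widened most in EZHIP changed less. The largest log2 ratio of EZHIP to Control was 0.92, at Tcfap2b, with 5.8 kb in Control and 11.0 kb in EZHIP. Hoxd followed at 0.48, Zic4 with Zic1 at 0.39, Gm8909 at 0.39 and Dmrta2, a regulator of cortical development, at 0.39, where the length was 11.0 kb in Control, 14.4 kb with EZHIP and 17.6 kb with K27M. The K27M length exceeded the EZHIP length at 4 of these 5 loci, Hoxd being the exception.

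The largest ratio of K27M to Control lengths was 2.84 on the log2 scale, at Cdx2, which had no EZHIP peak. Lhx5 at 2.36, Prss16 at 2.31 and a domain near Mef2d at 2.17 also had none. Among the 94 loci with a peak in each list the largest ratio was at Tcfap2b. This gene, which encodes the AP-2 beta transcription factor, was covered over 36.2 kb in K27M, a log2 ratio of 2.64 to Control (chr1:19196401-19232600). Among the 94 loci, the Six3-side domain in 1700106N22Rik followed at 1.87, and Dmbx1, a homeobox gene of the midbrain, at 1.62, with 5.0 kb in Control, 2.2 kb with EZHIP and 15.4 kb with K27M. Gm8909 had a ratio of 1.48 in sequence with 38.1% repeated words. Olig2, which specifies oligodendrocytes and motor neurons, had 7.0, 6.4 and 17.6 kb, a ratio of 1.33.

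Among the same 94 loci, the 5 smallest K27M to Control ratios were not at developmental genes, apart from Six6. BC107364, which had no EZHIP peak, was at -0.86, between the third and the fourth of them. A locus without a gene start near Igf2bp3 was covered over 21.0 kb in Control, 13.0 kb with EZHIP and 4.4 kb with K27M (chr6:49165401-49186800), a log2 ratio of -2.25. A Hist1 cluster held, among others, the starts of Hist1h4f, Hist1h1d, Hist1h3e, Hist1h2ae and Hist1h2bg. Peaks there covered 31.2 kb in Control, 32.2 kb with EZHIP and 6.8 kb with K27M (chr13:23636401-23677600), a ratio of -2.20. The starts of Hist1h3e, Hist1h2ae and Hist1h2bg lay under no Control peak, and none of the named starts lay under a K27M peak. In the neighbouring cluster from Hist1h1c to Hist1h1a, peaks covered 25.8 kb in Control, 25.8 kb with EZHIP and 9.6 kb with K27M (chr13:23830601-23856400), a ratio of -1.43. Genes of these clusters encode the replication-dependent histones, which package new DNA in every dividing cell. Their coding sequences are near-identical copies, and 16.7% and 8.91% of the 32 bp words at the 2 loci were repeated, so the placing of reads among copies is uncertain. The fourth of the 5, near Speer4c, was multi-copy, at 36.0, 24.6 and 25.4 kb. At Six6, an eye and pituitary homeobox gene, the values were 16.8, 11.4 and 13.2 kb.

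Some domains were in pieces in a list and whole in another. Within the 110 loci there were 23 gaps between peaks of the same list at 15 loci, 11 of them in Control, 9 with EZHIP and 3 with K27M. A K27M peak ran across 18 of the gaps, a Control peak across 7 and an EZHIP peak across 4. A list can only run across gaps of the other lists, so these counts have unequal bases. Sites were formed by joining overlapping peaks, so a gap lies within a site only where other lists cover it. Several gaps lay in multi-copy loci, among them those at A530032D15Rik, Speer4e and 4930467E23Rik, where the placing of reads is uncertain. At Tcfap2b a single K27M domain crossed a gap of 16.0 kb in Control and a gap of 20.6 kb in EZHIP, where the CpG density was 13.6 and 11.8 per kb. At Tcf21 it crossed 16.8 kb with 6.90 CpGs per kb. At Tcfap2a, the AP-2 alpha gene, the Control gap of 8.2 kb was filled in both other lists. At Vax2, a homeobox gene of the ventral eye, EZHIP had 16.2 kb in pieces on either side of a 10.2 kb gap that held the gene start and 22 CpGs per kb. A domain inside the body of Gata4, a heart and gut regulator, was whole in Control at 34.4 kb and in K27M at 39.4 kb, but had an 11.4 kb gap in EZHIP. The 3 gaps in K27M lay in a Hist1 cluster (16.2 kb, with 6 histone gene starts), at BC107364 and at Gm15319, the latter 2 in multi-copy sequence.

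The sequence gained or lost was then described by the lists that covered it, over the 94 loci without a multi-copy broad peak. Sequence under peaks of all lists measured 1322 kb at 80 loci and held 27.3 CpGs per kb and 5.90 gene starts per 100 kb. Sequence covered in Control and K27M but not in EZHIP measured 380.0 kb at 71 loci and held 24.6 CpGs per kb and 4.74 gene starts per 100 kb. Sequence in K27M alone measured 586.6 kb at 85 loci, with 16.8 CpGs per kb and 1.53 gene starts per 100 kb. CpG island windows touched 23%, 17.9% and 9.75% of the 200 bp bins of these parts. The part missing from EZHIP was therefore closer in base composition to the shared part than the part added in K27M was. Sequence in EZHIP alone measured 77.4 kb, with 20.5 CpGs per kb, and sequence in Control and EZHIP but not in K27M measured 45.6 kb, where 9 gene starts gave 19.7 per 100 kb. Loci were chosen for a broad peak in any list, so the amounts in each part follow in part from the choice.

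Edges were compared by the outermost ends of each list's peaks at the 94 loci with a peak in each list. Of these loci, 24 were broad in K27M alone, so outward K27M edges there follow in part from the choice of loci. Relative to Control, the 188 EZHIP edges lay inward at 112, outward at 56 and at the same bin for the rest, with a median outward shift of -600 bp (-1000 to -200 bp). The K27M edges lay outward at 148 and inward at 22, with a median of 1400 bp (800 to 1800 bp). Both edges of a locus lay outward at 63 of 94 loci in K27M and at 15 in EZHIP, and both lay inward at 3 and 39. At the 44 loci that were broad in every list, the median shifts were -200 bp (-800 to 0 bp) for EZHIP and 800 bp (600 to 1400 bp) for K27M. The EZHIP shift at those loci was the size of 1 bin, with an interval that reached 0.

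**Figure D4:**
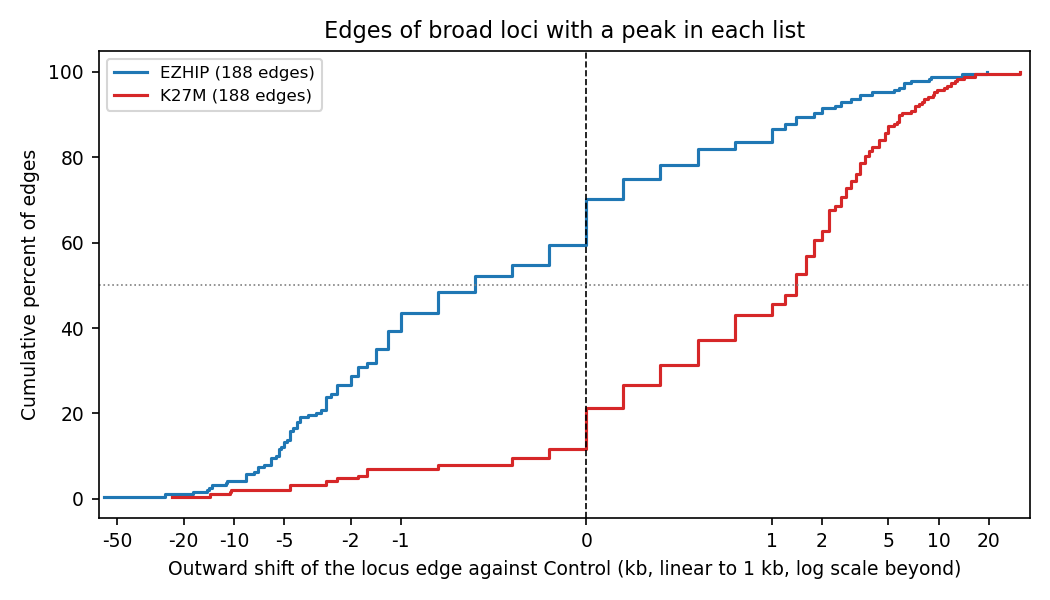
Cumulative percent of locus edges by their outward shift against Control in kb (linear within 1 kb of 0, log scale beyond), for EZHIP and K27M at the 94 broad loci with a peak in each list. The curves cross 50% at -0.6 kb for EZHIP and 1.4 kb for K27M.

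Few edges were fixed. Of 88 edges at the 44 loci broad in every list, 4 had the same position in all 3 lists, 13 were within 400 bp and 25 (28.4%) were within 1000 bp, and the median spread was 2200 bp. Of the 4 identical edges, 3 lay in multi-copy domains, at Gm10722 on both sides and at Sp140 on the right side, and the fourth was the right edge at E030030I06Rik. Edges within 400 bp outside multi-copy sequence included the left edges of Foxd1, Neurog2 and Zic5, the right edges of Lbx1 and Sfi1, and both edges of the domain with Hoxb9 and Hoxb8. The left edge at Zic5 was in an exon of Zic5, the right edge at Hoxb8 in an intron of Hoxb8, and those at Foxd1, Neurog2 and Lbx1 were intergenic. The largest spreads were 60200 bp, on the right of the multi-copy Gm15319 locus, 19600 bp at the right of Hoxd, where the EZHIP domain took in the start of Hoxd3, and 17400 bp at the left of Pax2, where K27M extended farther.

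Most edges lay between genes. Outside multi-copy sequence, 81 of 110 Control edges, 62 of 84 EZHIP edges and 134 of 176 K27M edges were intergenic, and 21, 19 and 34 were in introns. A gene start lay within 1000 bp of 10.0% of Control, 10.7% of EZHIP and 4.55% of K27M edges. The CpG density fell from the centre of a domain to its outside. In the central 4 kb the median was 28.0 CpGs per kb in Control, 28.6 with EZHIP and 27.8 with K27M. In the last 2000 bp inside the edge it was 19.0 (17.0 to 22), 17.5 (11.0 to 24.0) and 13.5 (12.5 to 17.0), and in the first 2000 bp outside it was 12.5 (10.5 to 14.5), 14.8 (11.5 to 21.0) and 10.5 (9.50 to 11.5). The inside was richer in CpG than the outside at 63.6% of Control edges (53.9 to 72.6%) and 63.6% of K27M edges (56.1 to 70.7%). At EZHIP edges the share was 46.4% (35.5 to 57.6%), an interval that includes 50%. EZHIP peaks of 5000 to under 15000 bp did not share this, since the inside was richer at 64.3% (57.1 to 71.0%) of their edges.

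**Figure D5:**
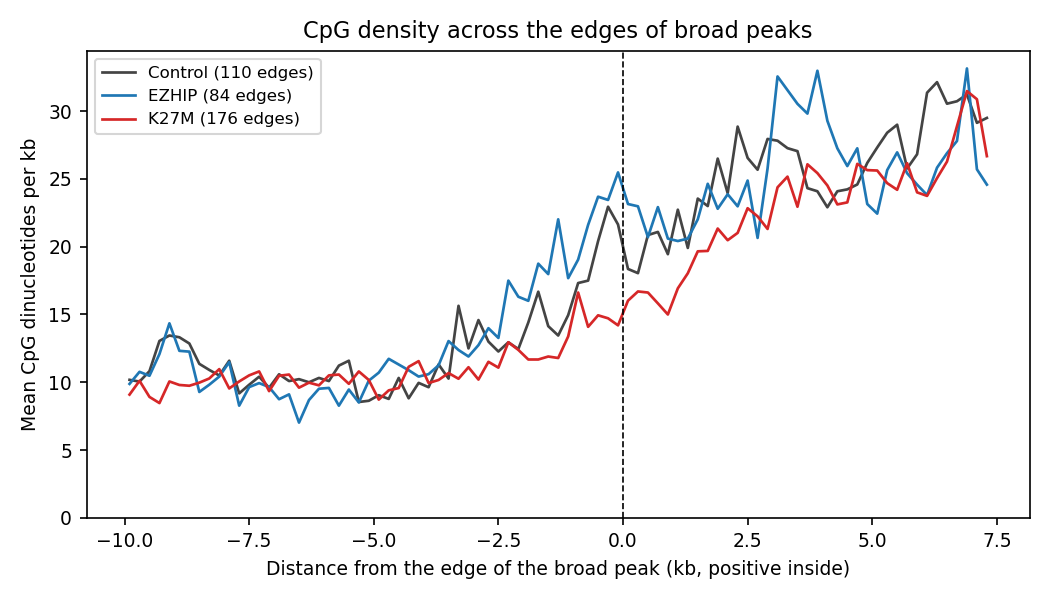
Mean number of CpGs per kb in 200 bp bins by distance in kb from the edge of broad domains that are not multi-copy (positive inside), for Control (110 edges), EZHIP (84) and K27M (176). In the first bin inside the edge the means were 18.4 in Control, 23.2 with EZHIP and 16.0 with K27M. In the first bin outside they were 21.6, 25.5 and 14.2, so the mean was lower just outside only in K27M. In the bin farthest outside they were 10.2, 9.88 and 9.09.

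Domains reached farther downstream of the gene start than upstream in the median. Among domains outside multi-copy sequence with a single gene start, 39 in Control, 30 with EZHIP and 71 with K27M, the median length upstream of the start was 7008 bp, 7553 bp and 7853 bp. Downstream it was 12542 bp (10191 to 14398), 10808 bp (7545 to 13598) and 13156 bp (11665 to 14200). The downstream side was the longer in 71.8% of Control domains (55.1 to 85.0%), 63.3% of EZHIP domains (43.9 to 80.1%) and 74.6% of K27M domains (62.9 to 84.2%). The EZHIP interval includes 50%. The whole gene was inside the domain in 66.7%, 66.7% and 69.0% of cases. Sox2, with a gene of 2457 bp, lay in a Control domain that reached 8326 bp upstream and 15073 bp downstream. Foxd1, a kidney stroma and retina regulator, was more asymmetric, with 2199 bp upstream and 14000 bp downstream in Control. Zdbf2, an imprinted gene, was the opposite, with 26438 bp upstream and 6561 bp downstream. Its domain was 33.0 kb in Control, 31.6 kb with EZHIP and 35.4 kb with K27M. Pax6, an eye and forebrain regulator, had 10452 bp upstream in Control, 5052 bp with EZHIP and 11852 bp with K27M, with 22147, 20347 and 22547 bp downstream, so that most of the EZHIP difference was on the upstream side.

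Broad domains without a gene start were often in repeated sequence or at other RNA genes. Of the 110 loci, 91 held a protein-coding gene start. A domain near Mef2c was at Mir9-2, a neural miRNA, and domains on chromosome 3 held genes for U1 small nuclear RNA. Broad loci also clustered, with 18 of the 110 within 100000 bp of another. The largest group was 5 multi-copy loci around Speer4e on chromosome 5, which together had 144.8 kb in Control, 100.2 kb with EZHIP and 156.2 kb with K27M. Pdx1 and Cdx2, both regulators of gut and pancreas development, were neighbours with 15.8 kb, 6.8 kb and 41.0 kb. The repeated domain with Gm10722 at the start of the assembled part of chromosome 9 spanned 38.6 kb in every list, with 92.7% repeated words and edges at the same bins. Reads cannot be placed with certainty among the copies there.

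A few broad domains had no counterpart at all. In K27M these included a locus of pseudogenes near H2-T3 at 27 kb (chr17:36341401-36368400). In EZHIP the only such domain was an 18.2 kb peak near Hsd17b12 (chr2:94019201-94037400), and in Control it was a 29.8 kb peak near Gm5373 with 81.5% repeated words. A further 11 loci had peaks in 2 lists, and at 10 of them the EZHIP list was the one without. These were Pax3, En1, Wt1, Lhx5, Cdx2, Fezf1, Prss16, BC107364 and domains near Mef2d and Tmem33. The EZHIP list was the shortest, with 255 peaks against 289 in Control and 327 in K27M, and 8 of the 11 loci were broad in K27M alone. Over all K27M peaks, 56.6% had an EZHIP counterpart and 67.9% a Control counterpart. En1, which patterns the midbrain and hindbrain, had 19.6 kb in Control and 20 kb in K27M, and Wt1, a kidney and gonad regulator, had 13.4 and 27.6 kb. Cdx2 had 3.4 kb in Control and 24.4 kb in K27M. The eleventh, in Nr5a2, had 3.2 kb in EZHIP and 17.2 kb in K27M.

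Domains near the limit of 15000 bp did not form a separate class. The narrowest Control members were at Evx1 (15200 bp), at a site near Nr2f1 (15600 bp) and at Dlx6 (15800 bp), and the widest peaks that missed the limit were at Tbx20 and Sall3 (14800 bp each) and Nkx3-2 (14200 bp). In EZHIP the members were Mnx1 and Foxd1 at 15000 bp and Pax5 at 15200 bp, and the nearest peaks outside were Dmrt3 at 14600 bp, Dmrta2 at 14400 bp and Lhx4 at 14200 bp. In K27M, Dmbx1 and Fezf1, each at 15400 bp, were just inside, while Foxl2 and Sox21 at 14600 bp and Tlx3 at 14400 bp were just outside.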

How the data were processed

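CBX2 ChIP-Seq peak lists of Control, EZHIP and K27M cells were used, with 1 library each. According to the study's methods, the authors aligned reads to mm9, and to a spike-in genome, with bowtie1 (Bowtie 1.0.0 in the submitters' processing notes) and called broad peaks with MOSAiCS-HMM. Whether an input library or scaling between libraries entered the CBX2 calls is not stated. Each deposited list gave positions of peaks as runs of 200 bp bins without any score, and positions were read as 1-based with the last base included. Read depth is unknown and bears on how many peaks are called and how wide they are.

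Peaks of at least 15000 bp were taken as broad. Overlap meant at least 1 bp, and a span was the summed width of all overlapping peaks of another list. Genes came from GENCODE vM1 and sequence from NCBIM37, the assembly of mm9. CpG island windows moved in steps of 50 bp, and 32 bp words were sampled every 100 bp. Percentages carry exact Clopper-Pearson intervals and medians distribution-free binomial intervals. Peaks are not replicates, so no p-value was computed. Scripts ran in Python 3.11.15 with numpy 2.4.6, scipy 1.17.1 and pysam 0.24.0, and overlaps, spans and edge shifts were tested on simulated data.

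The broad domains, the 25 gene groups and the rules for named loci were chosen with earlier results of these data known. Named loci were the 10 widest broad in all lists, those with a peak in 1 or 2 lists, the 5 largest and 5 smallest ratios to Control per list among loci with a peak in each list, split loci, and the 3 peaks on each side of the limit per list. Some loci that these rules select are not reported here. The comparison of spans at domains of the remaining list, the fate of gene starts, the composition of sequence by the lists that cover it, and the printed segments were added after the lists had been seen. Alternatives were limits of 10000 and 20000 bp, joining peaks under 10000 bp apart, autosomes only, removal of multi-copy peaks, equal numbers of widest peaks, 2 stricter overlap rules, starts of all annotated genes, a stricter CpG island window (G+C of at least 60%, ratio of at least 0.75) and, added later, starts of all protein-coding transcripts.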

Additional observations from a re-analysis of the deposited data

How the results depend on the processing

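No paired analysis was possible because groups were single libraries, which also meant that leaving out a library in turn was not possible. Of 221 values under 11 alternatives, 179 stayed within the 95% interval of the reported value, or within 1.5 times for a count, and 42 moved. A change of sign, possible only for median log2 ratios and edge shifts, was seen for 0. The cause of a move was not tested except where the setting itself changes which peaks enter. With a limit of 10000 bp there were 112 Control, 93 EZHIP and 160 K27M broad peaks in 170 loci, of which 79 were broad in all lists, 4 in EZHIP alone and 54 in K27M alone. Counterparts of broad K27M peaks fell to 90.0% in Control and 78.8% in EZHIP, and the median log2 K27M span at broad EZHIP peaks rose to 0.28. With 20000 bp there were 43 Control and 31 EZHIP broad peaks, 27 loci were broad in all lists and 3 in Control alone, and 100% of broad EZHIP peaks had a counterpart in Control and 100% in K27M. Joining peaks gave 2 loci broad in EZHIP alone. With the same number of widest peaks per list, 28 loci were in all sets, 13 in EZHIP alone and 11 in K27M alone, and 78.8% of the K27M set held a CpG island window. Without multi-copy peaks, gene starts lay in 90.9% of broad Control and 90.9% of broad K27M peaks, CpG island windows in 100%, 97.6% and 100% of Control, EZHIP and K27M, 100% of broad Control peaks had a K27M counterpart, and 3 loci were broad in Control alone. When at least 50% of both peaks had to overlap, counterparts fell to 84.5% (Control in EZHIP), 87.3% (Control in K27M), 86.5% (EZHIP in K27M), 76.7% (K27M in Control) and 56.3% (K27M in EZHIP). The median log2 EZHIP span at broad K27M peaks was then -0.21, and the median EZHIP to Control ratio at broad K27M peaks was -0.0436, with an interval that reached 0. With 50% of the broad peak alone, counterparts were 85.9% (Control in EZHIP), 79.6% (K27M in Control) and 60.2% (K27M in EZHIP), and those medians were -0.24 and -0.0523, the latter again with an interval that reached 0. With starts of all annotated genes, 96.2% of broad EZHIP and 92.2% of broad K27M peaks held a start. Starts of all protein-coding transcripts, an alternative added after seeing the data, gave 80.3% in Control, 86.5% in EZHIP and 86.4% in K27M.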
